A study of Canis lupus familiaris with 36 samples.

Results

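Cardiac hemangiosarcoma (HSA) was examined here as a set of 6 individual tumors, to describe which miRNAs dominated each of them, how far the tumors differed from one another and which miRNAs rose and fell together. The members were the 6 cardiac libraries whose title names cancer, of 36 samples in the series. Each was a small RNA library from archived formalin-fixed, paraffin-embedded (FFPE) heart tissue of a dog with histologically diagnosed HSA. Another 6 cardiac libraries, titled healthy and taken at necropsy from dogs that died of other causes than a tumor, are given only as a background for the spread and were not tested against the tumors, and the 24 splenic samples were not analysed here. The treatment field of the labels names the opposite condition for every cardiac library, and the title was followed. Tumors are numbered 1 to 6 as in the titles. The study took only dogs with HSA that had outlived their hospital stay and later died of it or of a related cause. Breed, age and treatment of single dogs were not used here, the dogs with HSA were older than the control dogs by the study's account, and the share of tumor cells in a section was not given in the sources used here.

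MicroRNAs (miRNAs) are short RNAs that guide Argonaute proteins to partly complementary messenger RNAs, which are then repressed. Many are made in particular cell types, so that a library of a whole section carries the miRNAs of every cell in it. HSA is a malignant tumor of endothelial cells, and in the heart it grows within muscle, blood and connective tissue. MiR-1, miR-133, miR-208 and miR-499 are known from striated muscle, miR-126 from endothelium, miR-142 and miR-223 from leukocytes, miR-451 and miR-144 from the red cell lineage, miR-143 and miR-145 from smooth muscle and fibroblasts, miR-122 from hepatocytes, and the miR-200 family from epithelium. MiR-21 is known as a miRNA that is raised in many tumors and in injured tissue. In a bulk section, fewer cells of a type and less of its RNA per cell cannot be told apart.

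The deposited counts cover 453 mature miRNAs. At least 1 tumor held reads of 315 of them, and all 6 tumors held reads of 229. The totals of the tumor libraries ran from 1656084 to 7254770 counts, with a median of 3375291, and those of the control libraries from 5544912 to 9336949. Levels are given as CPM, counts scaled to a common library size, here normalized with edgeR's TMM factors. These ran from 0.947 to 2.01 in the tumors. A miRNA was kept for the description of spread when its mean over the 6 tumors was at least 10 CPM, which held for 213 miRNAs, and 11 of these passed through 1 library alone. None of the 213 had a slope on sequencing depth at an adjusted p of 0.05 in edgeR's quasi-likelihood test (lowest adjusted p = 0.991, 2 at an unadjusted p under 0.05, 0 called by DESeq2). MiR-133a and miR-133c had the same counts in every tumor and are shown as deposited, so their reads enter the totals more than 1 time. Between these 2 and miR-133b, and between miR-1 and miR-206, sequences are so alike that reads may have been split.

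Tumor 3 stood apart from the other tumors in the markers of its labelled tissue. The miRNAs that define heart muscle were at their lowest in it, with miR-208a and miR-208b at 0. Its summed muscle level, in which miR-133a and miR-133c both count, was 1044 CPM. The hepatocyte miRNA miR-122 was its most abundant. What part this has in the results was not tested, and the main values without tumor 3 are these. The number of miRNAs ranging over at least 10-fold was 62 in place of 69, the first principal component took 47.4% in place of 36.1%, and the regression on miR-1 called 9 miRNAs in place of 7.

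The 10 leading miRNAs by mean share were miR-143, let-7a, miR-21, let-7f, miR-122, miR-133c, miR-133a, miR-30d, miR-26a and let-7g. The 10 highest miRNAs of each tumor took between 57.5% and 72.6% of its reads. The leading miRNA was not the same throughout. MiR-143 led in tumor 1 with 10.3% of the reads and in tumor 5 with 17.4%. MiR-21 led in tumor 2 with 15.7%, miR-122 in tumor 3 with 26.5%, let-7a in tumor 4 with 12.9% and miR-30d in tumor 6 with 8.81%. Tumor 6 shared its leading miRNA with all 6 control libraries. The Wilson 95% intervals of these shares were narrow, for instance 26.5% to 26.6% for miR-122 in tumor 3. They describe counting error and nothing else, because PCR copies of 1 molecule may be counted as separate reads.

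**Figure D1:**
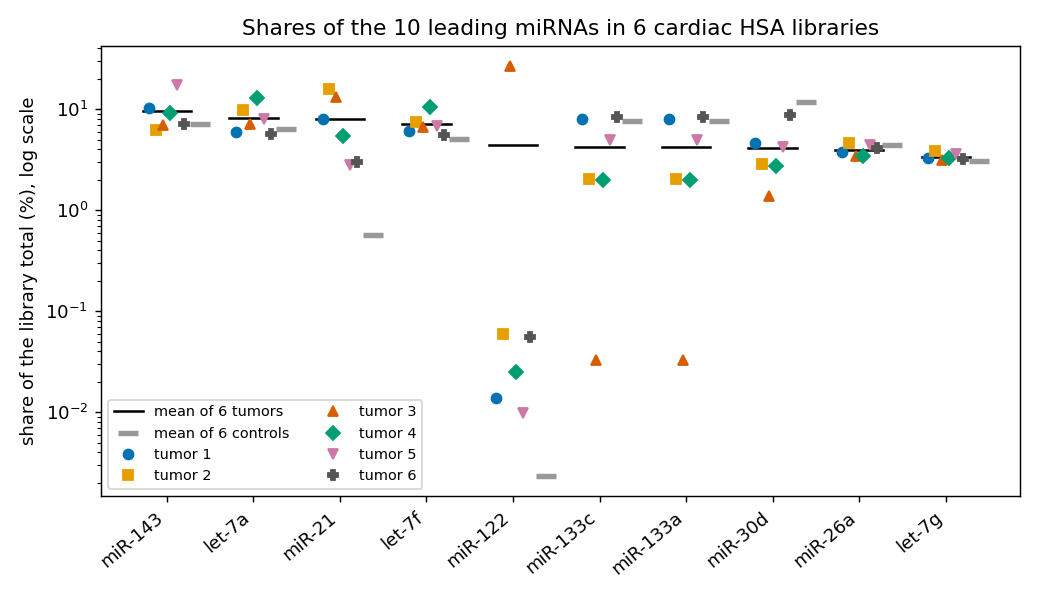
Share of the library total (%, log scale) of the 10 leading miRNAs, in order of their mean share. Symbols are the 6 cardiac HSA libraries, black lines their means and grey bars the means of the 6 control libraries. MiR-26a and let-7g lie close together in all tumors, miR-21 runs from 2.82% to 15.7%, and miR-122 stands at 26.5% in tumor 3 and at or below 0.0595% in the other 5.

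MiR-21, the marker followed in these tumors, took 8.03% ± 5.39 of the reads (SD, n = 6), with 0.568% ± 0.0805 (SD, n = 6) in the control libraries. Its level was 71034 CPM in tumor 1, 77834 in tumor 2, 113566 in tumor 3, 45679 in tumor 4, 22997 in tumor 5 and 31613 in tumor 6. By this level it was highest in tumor 3 and lowest in tumor 5, a 4.94-fold range. By share of reads, miR-21 was highest in tumor 2, at 15.7%, with 13.3% in tumor 3, and again lowest in tumor 5, at 2.82%. The control libraries lay between 5964 and 8516 CPM, as a background that was not tested against the tumors. MiR-143 took 9.53% ± 4.16 of the reads (SD, n = 6), from 6.23% in tumor 2 to 17.4% in tumor 5. The let-7 family members were steadier. Let-7g took 3.39% ± 0.285 (SD, n = 6) and let-7f 7.18% ± 1.78 (SD, n = 6), while let-7a, at 8.24% ± 2.73 (SD, n = 6), stood apart in tumor 4. MiR-26a took 3.97% ± 0.494 (SD, n = 6). The mean share of miR-122, 4.45% ± 10.8 (SD, n = 6), came from tumor 3, and the median over the tumors was 0.0406%. MiR-133a took 4.24% ± 3.46 (SD, n = 6), from 0.0330% in tumor 3 to 8.40% in tumor 6. MiR-30d, the leading miRNA of the control libraries at 11.9%, took 4.11% ± 2.58 (SD, n = 6).

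The spread among tumors was wide. Over the 213 kept miRNAs the median SD of the log2 level was 0.77 in the tumors, and over the 178 miRNAs kept by the same rule in the control libraries it was 0.26. Of 174 miRNAs kept in both, 164 had the higher SD in the tumors, and their median SD was 0.63 in the tumors and 0.26 in the controls. The common biological coefficient of variation, the relative spread that edgeR estimates beyond counting error, was 0.957 in the tumors and 0.218 in the controls. It was taken over the 213 and the 178 miRNAs, which are unlike sets. The highest tumor lay at least 10-fold above the lowest for 69 miRNAs, 32.4% of those kept, and at least 100-fold for 28. None of the 178 control miRNAs, 0%, had a range of that size. Of the 69, 11 had a mean of at least 1000 CPM, and 20 had at least 1 tumor with fewer than 3 counts, so their ranges are lower bounds set by that floor. Another 38 miRNAs had a range under 2-fold.

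**Figure D2:**
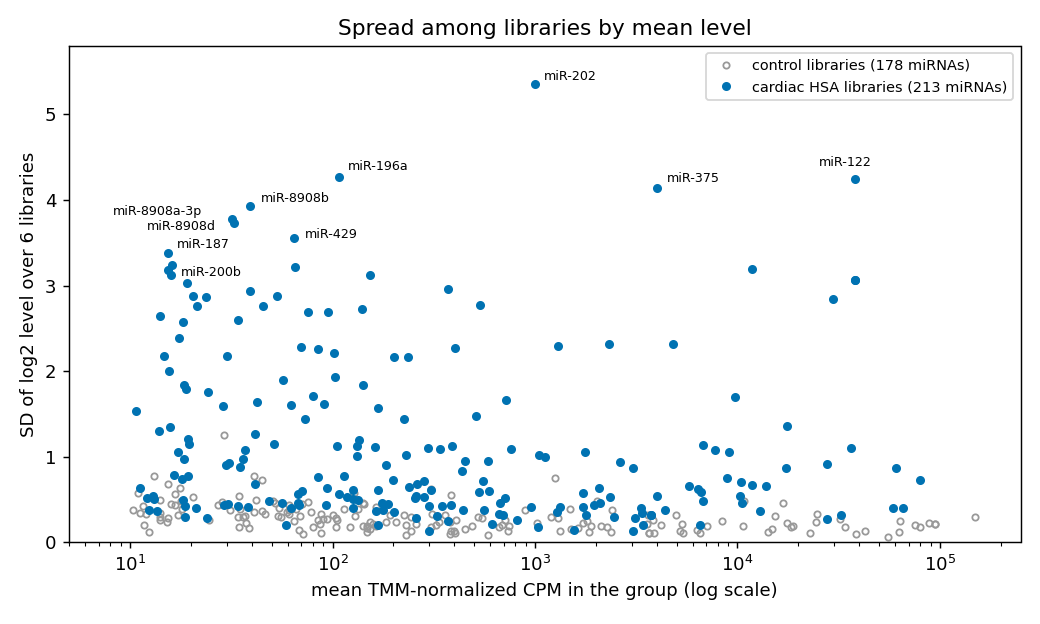
Standard deviation of the log2 level over 6 libraries against the mean TMM-normalized CPM (log scale), 1 point per miRNA, for the cardiac HSA libraries (filled) and the control libraries (open). Labels mark the 10 highest SDs among the tumors, from 3.24 for miR-200b to 5.35 for miR-202, at low and at high mean levels.

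The 10 miRNAs with the highest SD were miR-202, miR-196a, miR-122, miR-375, miR-8908b, miR-8908a-3p, miR-8908d, miR-429, miR-187 and miR-200b. Most were near 0 in some tumors and high in others rather than evenly spread. MiR-202, a miRNA best known from the gonads, had 3.24 CPM in tumor 1, 946 in tumor 2, 2.76 in tumor 3, 0 in tumor 4, 5039 in tumor 5 and 5.82 in tumor 6. MiR-187 was high in the same pair, with 24.95 CPM in tumor 2 and 66.9 in tumor 5, while tumors 1, 3 and 6 had 0 and tumor 4 had 0.796. MiR-8908b had 49.6 CPM in tumor 2, 95.7 in tumor 4 and 88.3 in tumor 6, and 0, 0 and 0.904 in tumors 1, 3 and 5. The other members of that family followed the same split. MiR-8908a-3p had 39.3, 105 and 46.1 CPM and miR-8908d 15.7, 114 and 64.8 in tumors 2, 4 and 6, and both were at or below 0.678 in tumors 1, 3 and 5. Since the family members are much alike and lie next to each other, reads may be shared among them and they are no independent points.

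The 5 steadiest miRNAs were miR-186, miR-361, miR-339, miR-128 and miR-29a. MiR-186 had 2871 CPM in tumor 1, 2938 in tumor 2, 2949 in tumor 3, 2833 in tumor 4, 3557 in tumor 5 and 3242 in tumor 6, a 1.26-fold range. Its SD of 0.13 was the same as in the control libraries, 0.13. MiR-361 and miR-339 had ranges of 1.28-fold and 1.29-fold, miR-128 of 1.37-fold and miR-29a of 1.43-fold. The 5 had SDs of 0.13 to 0.20. In the control libraries miR-361, miR-339 and miR-128 had lower SDs than in the tumors, at 0.127, 0.128 and 0.156. MiR-29a had a higher one there, at 0.322.

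A single tumor stood out for some miRNAs. The highest tumor lay at least 4-fold above the next for 15 of 213 miRNAs, 7.04%, and 8 of the 15 were highest in tumor 5. Besides miR-202, these were miR-215 (22.9-fold above the next tumor), miR-135b (18.5-fold), miR-183 (12.1-fold), miR-182 (9.09-fold), miR-141 (7.60-fold), miR-200c (7.39-fold) and miR-129 (6.38-fold). Tumor 2 led by such a margin for miR-216a, miR-216b and miR-217, which are known from the pancreas, tumor 3 for miR-122 and miR-885, which are known from liver, tumor 1 for miR-184, known from the eye, and tumor 4 for miR-196b of the HOX clusters. Tumor 6 led by 4-fold for no miRNA. Some of the 15, among them miR-141, miR-215, miR-216a, miR-216b and miR-217, had a mean under 10 CPM over the other 5 tumors. They passed the mean filter through the tumor that led, so a wide lead was in part set by the filter. The lowest tumor lay at least 4-fold below the next for 17 of 213, 7.98%, and 11 of the 17 were lowest in tumor 3, where 7 of the 11 were the muscle miRNAs.

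The muscle miRNAs moved together in all 6 tumors. All 8 listed members were found and 7 were kept, and every one was lowest in tumor 3 and had its 2 highest values in tumors 1 and 6. Their summed level was 229364 CPM in tumor 1, 26716 in tumor 2, 1044 in tumor 3, 48106 in tumor 4, 114218 in tumor 5 and 289060 in tumor 6, a 277-fold range. Control libraries lay between 254547 and 336942 CPM, so tumor 6 was within their range, and tumor 3 was far below it. The counts of miR-133a and miR-133c, identical in the tumors, both enter these sums, also in the controls. MiR-1, the main miRNA of striated muscle, had 62021 CPM in tumor 1, 4045 in tumor 2, 396 in tumor 3, 10363 in tumor 4, 23809 in tumor 5 and 76804 in tumor 6. MiR-499, encoded in a myosin gene, had 21211, 2114, 72.4, 4127, 9697 and 33734 CPM in tumors 1 to 6. The same order held for miR-133a, with 72291, 10185, 282, 16678, 40025 and 88667 CPM. MiR-208a, the cardiac myosin miRNA that was too low to be kept, had 30.3 CPM in tumor 1, 3.66 in tumor 2 and 0 in the other 4, with 2.36 to 10.8 CPM in the control libraries. Whole library profiles went the same way. Across the 213 kept miRNAs, tumors 1 and 6 had a Spearman rho of 0.957 with each other and 0.939 to 0.960 with the control libraries, while the other tumors had 0.786 to 0.861 with the controls. This is a description across miRNAs, which are not independent replicates.

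**Figure D3:**
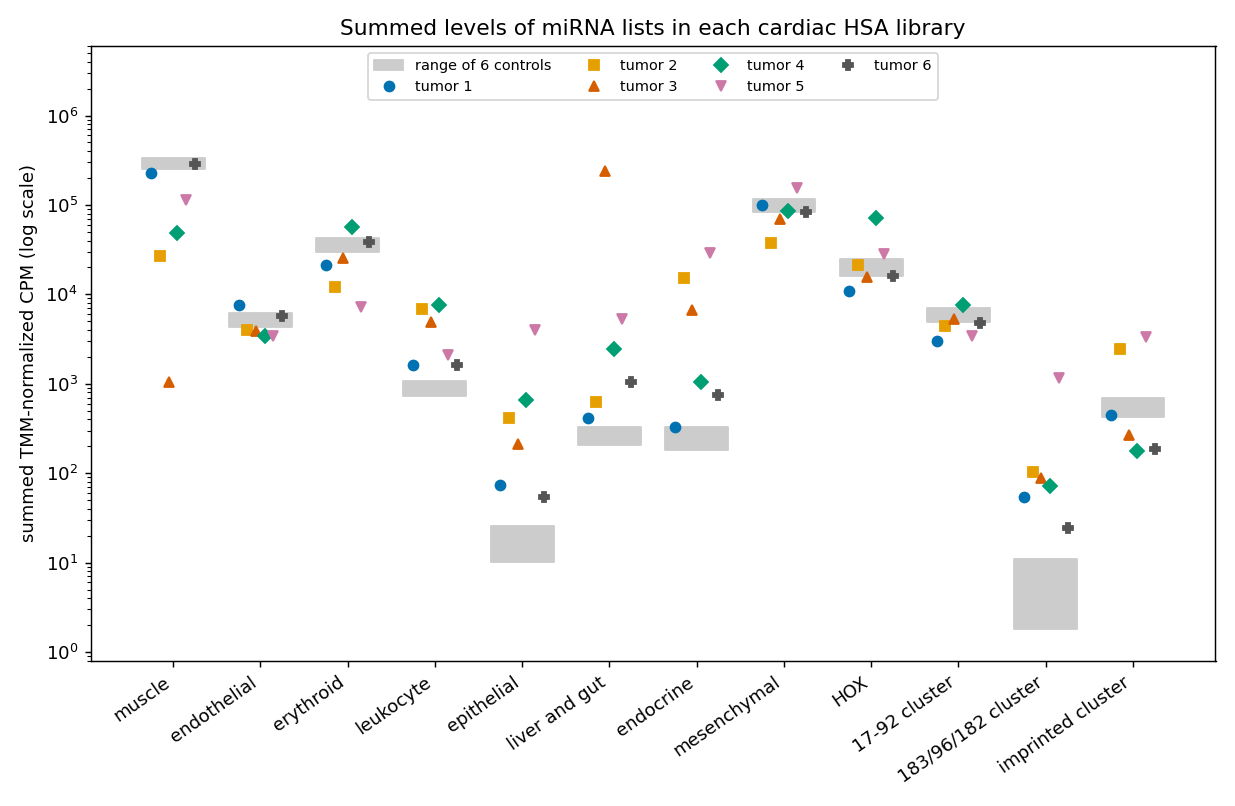
Summed TMM-normalized CPM (log scale) of the kept and lower members of 12 miRNA lists in each of the 6 cardiac HSA libraries (symbols), with the range of the 6 control libraries as grey bands. The muscle sum, in which miR-133a and miR-133c both count, runs from 1044 CPM in tumor 3 to 289060 in tumor 6. Liver and gut miRNAs stand at 240173 in tumor 3, and the imprinted cluster separates tumors 2 and 5 from the other 4.

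Covariation was measured between all pairs of the 213 miRNAs. The points of each correlation are the 6 tumors, and the miRNAs of a pair share library, depth and scaling factor. Of 22578 pairs, 777 (3.44%) had a positive Spearman rho at an unadjusted exact permutation p under 0.05 and 445 (1.97%) a negative one, which without ties needs a rho of at least 0.886 in size. With scaling by library size alone the split was 5.31% positive and 0.912% negative. The smallest p that 6 tumors allow is 0.00278 in this exact two-sided test, and after Benjamini-Hochberg adjustment over all pairs the lowest adjusted p was 0.454 for rho and 0.365 for Pearson's r. No pair therefore passed the adjusted threshold, and "called" below means the unadjusted one. The median rho over all pairs was -0.03, with 112 pairs at a rho of 1 and 26 at -1.

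MiRNAs whose genes lie next to each other are often cut from 1 primary transcript, and their pairs were described separately. For 140 pairs the genes were within 10 kb in the RefSeq annotation, which was matched by name for all but 1 of the 213 miRNAs. Their median rho was 0.77, and 55 of the 140 (39.3%) were called positive and 0 negative, beside 3.22% called positive among the other pairs. Without pairs of 1 shared number, whose reads could be split between near-identical copies, 44 of 120 (36.7%) were called positive with the same median. Leaving out the large imprinted cluster too, 22 of 79 (27.8%) were called, with a median of 0.71. These shares are descriptions, as neighbouring pairs overlap in their members.

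Among pairs written down as products of a shared transcript, 25 of 27 were kept, with a median rho of 0.77 and 11 called. MiR-221 and miR-222, the pair on the X chromosome known from endothelium and from cell cycle control, had a rho of 1 (exact permutation p = 0.00278, adjusted p = 0.454) and an r of 0.990 (exact permutation p = 0.00139, adjusted p = 0.365), and r was 0.982 without tumors 5 and 6. These were also the 2 miRNAs with an unadjusted p under 0.05 on sequencing depth. Their depth slopes were -0.66 (edgeR p = 0.0283) and -0.53 (edgeR p = 0.0468), both with an edgeR adjusted p of 0.991. What part depth has in their covariation was not tested. MiR-192 and miR-194 had a rho of 1 with an r of 0.995, which was 0.993 without tumors 3 and 5. For miR-1 and miR-133a the rho was 1 and the r 0.981, and without tumors 3 and 6 the r was 0.992. MiR-424 and miR-503 had a rho of 1 and an r of 0.971. In each set of 5 tumors these 4 pairs kept a rho of 1, as did miR-1 with miR-499, a pair encoded on different transcripts. The paired miR-200c and miR-141 had a rho of 0.943 and an r of 0.985, but r was 0.63 without tumors 4 and 5, so that the linear relation rests on those 2. Its call depended on the scaling too, with a rho of 0.54 under library size alone (exact permutation p = 0.297) and of 0.83 under TMM factors over the 6 tumors (exact permutation p = 0.0583). A reliance on 2 tumors was also seen for miR-183 and miR-182, with a rho of 0.943, and an r of 0.985 that was 0.650 without tumors 5 and 6. MiR-132 with miR-212, miR-181a with miR-181b, and miR-199 with miR-214 also had a rho of 0.943.

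For other pairs from a shared transcript rho was low, and it varied with the scaling. MiR-23a and miR-27a, neighbours of miR-24, had a rho of -0.20 (exact permutation p = 0.714, adjusted p = 0.967) and an r of 0.160 (exact permutation p = 0.893, adjusted p = 0.995), and its rho turned to 0.14 to 0.26 under the 3 other scalings. MiR-23a had 483, 498, 285, 286, 271 and 264 CPM in tumors 1 to 6. MiR-27a had 3476, 1373, 1302, 1488, 1622 and 3147 CPM. The disagreement lay in tumors 2 and 6, where 1 of them was high and the other low. The remaining low values were found for miR-224 and miR-452 (rho 0.03, and 0.09 to 0.60 under the other scalings), miR-106b and miR-25 (rho 0.09, and 0.37 to 0.66) and miR-144 and miR-451 (rho 0.26, and 0.26 to 0.71). MiR-486 and its opposite arm miR-486-3p had a rho of 0.14 (-0.03 to 0.49 under the other scalings), and miR-195 and miR-497 one of 0.20 (-0.20 to 0.54). None of these had an unadjusted exact permutation p under 0.05 under any of the 4 scalings.

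Pairs of 1 tissue or lineage made from separate transcripts had a median rho of 0.66, with 4 of 14 called, and pairs of different tissues a median of 0, with 0 of 10 called. The called ones were miR-1 with miR-499, miR-1 with miR-208b, miR-142 with miR-150, and miR-451 with miR-486. Under library size alone, miR-1 with miR-208b (rho 0.77, exact permutation p = 0.103) and miR-451 with miR-486 (rho 0.83, exact permutation p = 0.0583) were not called. MiR-142 and miR-150 had a rho of 0.943 (exact permutation p = 0.0167, adjusted p = 0.544) and an r of 0.926 (exact permutation p = 0.0153, adjusted p = 0.492), and r was 0.816 without tumors 1 and 2. MiR-21 and miR-1 had a rho of -0.71 (exact permutation p = 0.136, adjusted p = 0.773) and an r of -0.69 (exact permutation p = 0.125, adjusted p = 0.732), and r was -0.49 without tumors 3 and 5.

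**Figure D4:**
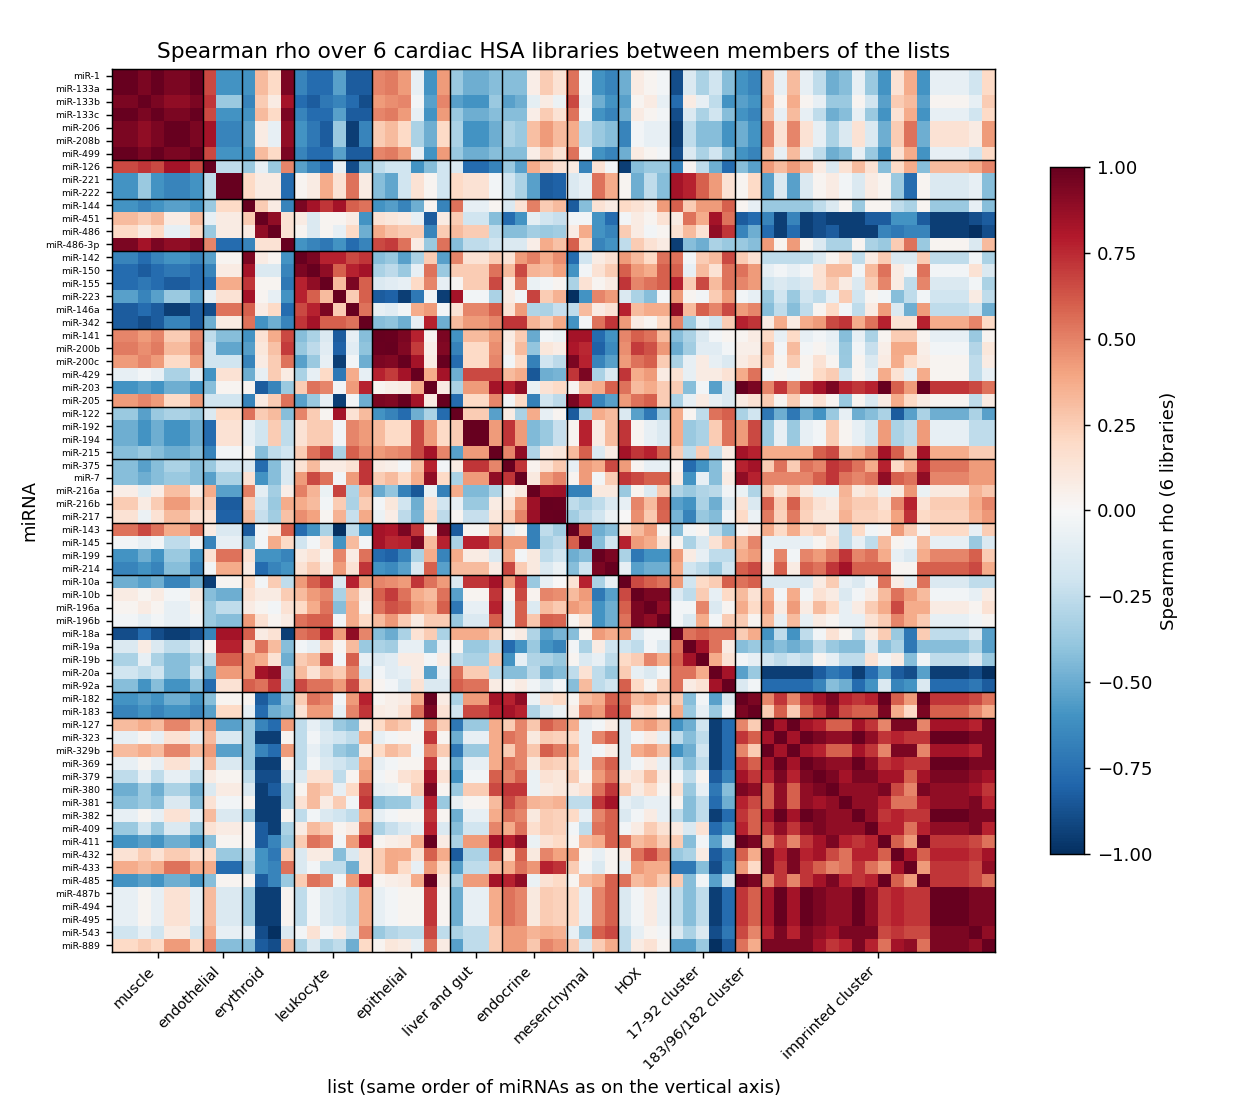
Spearman rho over the 6 cardiac HSA libraries between all kept members of the 12 lists, in the same order on both axes, with lines between lists; red is positive and blue negative. The muscle block is red throughout (median rho 0.943), the imprinted block is red (median rho 0.829), and the mesenchymal block is mixed (median rho -0.31). Many imprinted members were kept through tumors 2 and 5.

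In the muscle list all 21 pairs were called positive, 15 of 15 without miR-133c, and 7 of 7 members ranged over at least 10-fold. MiR-183 and miR-182, the kept members of their list, had the same rho of 0.943. A regression of each miRNA on the log2 level of miR-1, fitted over the 6 tumors with edgeR's quasi-likelihood test, called 7 miRNAs higher with miR-1, 3.3% of those tested, and 0 lower (0%) at an adjusted p of 0.05. MiR-1 and the fitted miRNA share the library and its scaling factor. MiR-499 rose by 1.10 log2 units per log2 unit of miR-1 (SE 0.10, edgeR adjusted p = 0.00492), miR-133b by 0.97 (SE 0.09, edgeR adjusted p = 0.00492), and miR-133a and miR-133c by 1.02 (SE 0.14, edgeR adjusted p = 0.0252). With slopes near 1, these muscle miRNAs changed in about equal proportion. Lower slopes were found for miR-29c, 0.36 (SE 0.05, edgeR adjusted p = 0.0291), miR-582, 0.59 (SE 0.09, edgeR adjusted p = 0.0338), and miR-30e, 0.33 (SE 0.06, edgeR adjusted p = 0.0365). MiR-29c, known to repress collagen genes, had 2174 CPM in tumor 1, 584 in tumor 2, 284 in tumor 3, 803 in tumor 4, 1086 in tumor 5 and 1377 in tumor 6. MiR-30e had 1649, 528, 380.5, 744, 1115 and 2336 CPM in the same order. Both were thus lowest in tumor 3 and highest in tumors 1 and 6, but over 7.67-fold and 6.14-fold. MiR-206 and miR-208b had slopes of 0.53 (edgeR adjusted p = 0.110) and 0.89 (edgeR adjusted p = 0.278), short of the threshold. By rank, miR-1 had 27 positive (12.7%) and 4 negative (1.89%) called partners, beside 3.44% and 1.97% over all pairs. Its partners with the highest rho were miR-499, miR-133a and miR-133c (all 1). Those with the lowest were miR-502 (-0.94), miR-18a and miR-106b (both -0.89).

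The calls of miR-499 and miR-133b held with each tumor left out in turn, at adjusted p values up to 0.0380 and 0.0459 in edgeR's test. MiR-133a kept its call without tumor 2 or tumor 3, where its slope was 1.10 and 0.75, and lost it without tumor 1, 4, 5 or 6, at edgeR adjusted p values of 0.0735, 0.0793, 0.0656 and 0.0751. MiR-30e kept it only without tumor 3 (edgeR adjusted p = 0.0340, and 0.0793 to 0.131 without any other), and miR-29c and miR-582 were called in no set of 5, at 0.0735 to 0.171 and 0.0793 to 0.181. With scaling by library size alone, miR-29c, miR-582 and miR-30e were not called either (edgeR adjusted p = 0.116, 0.0644 and 0.0644).

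**Figure D5:**
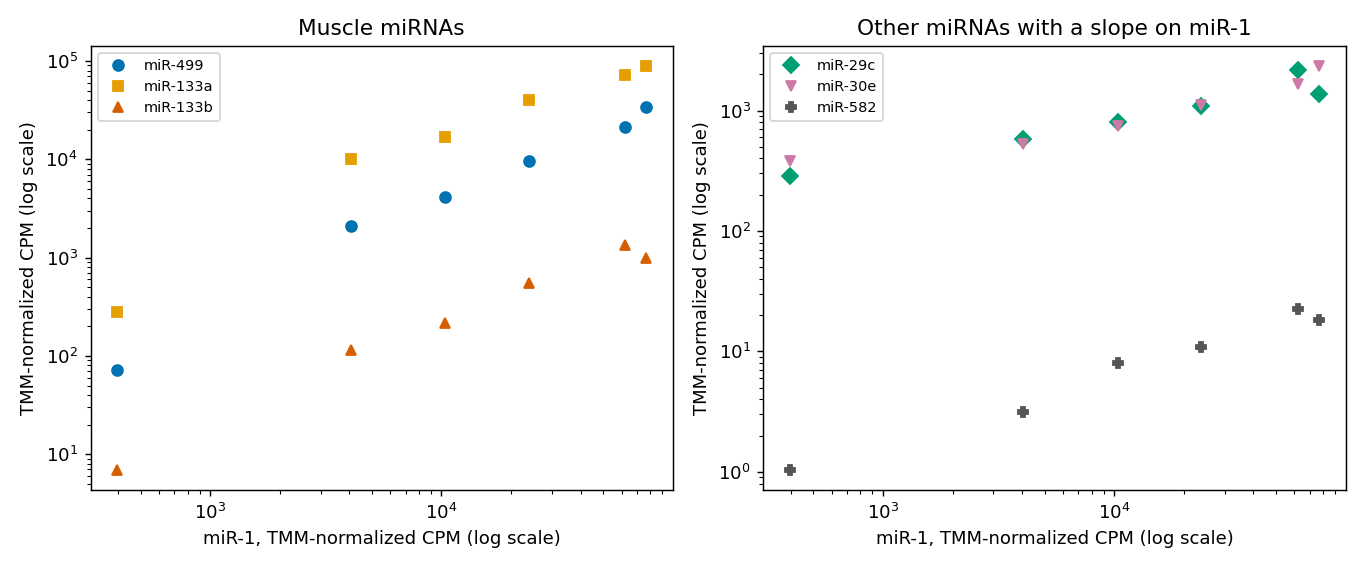
Level of miR-499, miR-133a and miR-133b (left) and of miR-29c, miR-30e and miR-582 (right) against miR-1, all in TMM-normalized CPM on log scales, 1 point per cardiac HSA library. The muscle miRNAs run parallel to miR-1 (slopes 0.97 to 1.10 on the log2 scale), the others rise less steeply (0.33 to 0.59).

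No miRNA was called on miR-21, miR-126 or miR-142 by edgeR's quasi-likelihood test, with lowest adjusted p values of 0.676, 0.111 and 0.524, while 15, 28 and 18 had an unadjusted p under 0.05. DESeq2 called 9, 28 and 3. By rank, miR-21 had 4 positive (1.89%) and 6 negative (2.83%) called partners, shares close to the 3.44% and 1.97% over all pairs. Its closest was miR-15a (rho 1, r 0.991), with 129, 153.7, 178, 96.5, 68.0 and 84.0 CPM in tumors 1 to 6. MiR-532 and miR-371 followed, both at a rho of 0.943. Its most opposite were miR-31 (rho -0.94), miR-200b (rho -0.93) and miR-125b (rho -0.89). MiR-125b had 8458, 6690, 6796, 12332, 15790 and 20762 CPM, lowest in tumors 2 and 3, where miR-21 was highest.

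MiR-126, the endothelial miRNA, did not mark the tumors evenly. It had 5177 CPM in tumor 1, 1894 in tumor 2, 1326 in tumor 3, 1132 in tumor 4, 1638 in tumor 5 and 4613 in tumor 6, and the control libraries had 3178 to 5284. Tumors 1 and 6 lay within the control range and the other 4 below it. Its partners with the highest rho were miR-105a and miR-338 (both 0.943) and miR-24 (0.886), and those with the lowest were let-7d (-1), miR-10a and miR-1839 (both -0.94). It had 8 positive and 8 negative called partners, 3.77% each, beside 3.44% and 1.97% over all pairs. MiR-10a, encoded in a HOX cluster, had 1194 CPM in tumor 1, 6565 in tumor 2, 9033 in tumor 3, 29954 in tumor 4, 9982 in tumor 5 and 1917 in tumor 6, so that tumors 1 and 6 were lowest where miR-126 was highest. MiR-221 and miR-222, the other endothelial list members, moved apart from miR-126, with a rho of -0.26 for miR-221.

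The summed level of the leukocyte miRNAs was higher in tumors 2, 3 and 4 than in the other 3. It was 1613 CPM in tumor 1, 6819 in tumor 2, 4926 in tumor 3, 7531 in tumor 4, 2073 in tumor 5 and 1637 in tumor 6, and 732 to 1085 in the control libraries. The median rho among the 6 members was 0.71, and 3 of 15 pairs were called. MiR-150, typical of mature lymphocytes, had 104, 1703, 670, 1347, 368 and 140 CPM in tumors 1 to 6. MiR-155, induced on lymphocyte and macrophage activation, had 126.5, 726, 410, 1501, 185 and 121 CPM. MiR-223, typical of the myeloid lineage, was lowest in tumor 5 at 131 CPM and highest in tumor 2 at 774. MiR-146a, the most abundant list member in every tumor, had 871, 2380, 2429, 3332, 1022 and 513 CPM, with 230 to 437 in the controls. Tumors 2, 3 and 4 lay above tumors 1, 5 and 6 without overlap for miR-142, miR-150, miR-155 and miR-146a. This split was read from the same values and is not set beside its share over all 213 kept miRNAs. For miR-223 tumor 6, at 460.1 CPM, came above tumor 4, at 436. MiR-342 did not follow the split either, with 44.9, 86.1, 83.5, 68.96, 82.7 and 46.0 CPM in tumors 1 to 6, none of them above the control range of 69.1 to 122.5 CPM. MiR-142 had 2 positive called partners (0.943%, beside 3.44% over all pairs), miR-144 and miR-150, and 0 negative ones.

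Red cell miRNAs varied in another order. MiR-451 had 15253 CPM in tumor 1, 9007 in tumor 2, 14617 in tumor 3, 40831 in tumor 4, 2570 in tumor 5 and 22540 in tumor 6, a 15.9-fold range. MiR-486 had 5488, 2706, 10521, 15966, 4285 and 15583 CPM. Tumor 4 was highest for both, and tumor 5 or 2 lowest. The 2 had a rho of 0.886, whereas the median over the 4 list members was 0.14. MiR-144 followed the leukocyte miR-142 in rank (rho 0.943) and miR-486-3p had a rho of 0.14 with its opposite arm. MiR-486-3p had 320, 97.0, 96.3, 237, 401 and 625 CPM in tumors 1 to 6. Its slope on the muscle miRNA miR-1 was 0.34 (edgeR adjusted p = 0.134), short of the threshold. The control libraries had 18693 to 31300 CPM of miR-486 and 1758 to 2398 of miR-486-3p, as a background that was not tested against the tumors.

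Epithelial miRNAs were high in tumors 4 and 5. Of 7 listed, 6 were kept, and all of the 6 were highest in tumor 5, with a range of at least 10-fold. MiR-141, miR-200b, miR-429 and miR-205 passed the mean filter through tumors 4 and 5, so their ranges had to be wide. MiR-200c had 35.7 CPM in tumor 1, 9.76 in tumor 2, 12.1 in tumor 3, 256 in tumor 4, 1891 in tumor 5 and 20.1 in tumor 6. MiR-429 had 3.24, 0, 7.93, 130, 244 and 2.33 CPM. MiR-203, typical of stratified epithelium, broke the pattern, with 29.2, 405, 185, 178, 1580 and 24.9 CPM, so that tumor 2 came second, and its rho with miR-200c was 0.09. The median rho of the list was 0.829, and 6 of 15 pairs were called. The filter bears on these pairs too, so they describe only the kept members. The control libraries had 0.541 to 5.32 CPM of miR-200c.

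Liver and gut miRNAs separated within their list. MiR-122 had 124 CPM in tumor 1, 296 in tumor 2, 226586 in tumor 3, 208.2 in tumor 4, 80.5 in tumor 5 and 593 in tumor 6, so that tumor 3 was 382.3-fold above the next. MiR-885 had 14.6, 6.51, 512, 1.59, 24.6 and 10.3 CPM, again with tumor 3 alone high. MiR-192, shared by liver, gut and kidney, had 187, 191.6, 8960, 1478, 2738 and 289 CPM, and miR-194 followed it. They were high in tumor 3 but also in tumors 5 and 4, and the rho of miR-122 and miR-192 was 0.26 (exact permutation p = 0.658, adjusted p = 0.961). MiR-215, of the miR-192 family, was not high in tumor 3, with 6.21 CPM, but in tumor 5, with 413. The list thus held at least 2 patterns.

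Endocrine miRNAs followed more than 1 pattern. MiR-375, typical of endocrine and some epithelial cells, had 23.8 CPM in tumor 1, 5492 in tumor 2, 5867 in tumor 3, 41.6 in tumor 4, 12646 in tumor 5 and 71.4 in tumor 6, with 2.57 to 10.9 in the control libraries. MiR-7 had 304, 9312, 759, 996, 16717 and 647 CPM. Tumor 3 was high for miR-375 and not for miR-7, and tumors 2 and 5 were high for both. The pancreatic miR-216a, miR-216b and miR-217 were highest in tumor 2, at 90.5, 349 and 104 CPM. No other tumor exceeded 1.46, 21.1 and 6.55 CPM for these, and in tumor 3, where the other gland miRNA miR-375 was high, all 3 were at 0. MiR-216a, miR-216b and miR-217 passed the mean filter through tumor 2, so their ranges had to be wide.

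The large imprinted cluster, transcribed from the maternal allele next to DLK1, split the tumors in the same way for every kept member. Of 45 listed members 37 were found and 18 kept. For 18 of 18 both tumor 2 and tumor 5 lay above each of the other 4, and the lower of the 2 exceeded the highest of the 4 by 2.44-fold to 34.5-fold, with a median of 6.33-fold. Many members passed the mean filter through these 2 tumors, so the count describes the kept members and not all 37. The split was read from these same values and is not set beside its share over all 213 kept miRNAs. The summed level was 444 CPM in tumor 1, 2455 in tumor 2, 269 in tumor 3, 179 in tumor 4, 3297 in tumor 5 and 185 in tumor 6. The control libraries, at 423 to 690 CPM, lay between the 2 sets of tumors, and tumor 1 was within their range. MiR-127 had 65.4, 482, 14.8, 33.2, 581 and 36.5 CPM in tumors 1 to 6. MiR-379 had 103, 320, 55.9, 41.4, 449 and 33.0 CPM. MiR-411 had 22.2, 130, 30.7, 24.1, 208.4 and 21.5 CPM. The last was the only kept member with a range below 10-fold, at 9.68-fold. Within the list 71 of 153 pairs (46.4%) were called positive and 0 negative, with a median rho of 0.829. The same filter bears on these pairs, so they too describe only the kept members. Across lists, the imprinted sum and the red cell sum had opposite orders. Their rho was -1 (exact permutation p = 0.00278, adjusted p = 0.183 over all pairs of list sums). It was the rho of largest size among all those pairs and did not pass after adjustment. It is given only as a description of 6 tumors.

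Mesenchymal miRNAs had a median rho of -0.31, because miR-143 and miR-145 (r 0.879, but -0.60 without tumors 2 and 5) varied apart from miR-199 and miR-214. MiR-199 had 3398, 3407, 3854, 2192, 3051 and 2872 CPM in tumors 1 to 6, a 1.76-fold range, whereas miR-143 had 92060, 30938, 59703, 76130, 142293 and 75262 CPM. HOX miRNAs were all highest in tumor 4. MiR-196a had 1.08, 2.71, 0, 406, 232 and 0.728 CPM, so that tumors 4 and 5 stood far above the other 4, and miR-10b had 9740, 14864, 6797, 40312, 18313 and 13982 CPM. Members of the proliferation-linked cluster that includes miR-92a spread little, with ranges of 1.92-fold to 3.03-fold among the 5 kept and 0 of 10 pairs called, at a median rho of 0.54. MiR-183 had 18.4, 32.3, 40.7, 26.3, 491 and 9.75 CPM, with tumor 5 alone high, as for miR-182.

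Principal components of the log2 levels collected these patterns. The first component took 36.1% of the variance and the second 26.9%. Tumor 5 (score 22.2) and tumor 2 (12.0) stood high on the first component and tumor 3 (-14.1) low. The highest loadings on it were those of miR-202, miR-187, miR-432, miR-433 and miR-329b, the last 3 being members of the imprinted cluster, and the lowest those of miR-122, miR-451, miR-20b, miR-486 and miR-144. On the second component tumor 3 (21.0) lay opposite tumor 6 (-13.4), with miR-122, miR-375, miR-885, miR-192 and miR-194 loading highest and miR-499, miR-133c, miR-133a, miR-1 and miR-208b lowest. The scores of tumors 1, 4 and 6 were negative on both.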

How the data were processed

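Small RNA of FFPE dog heart tissue was sequenced in 6 cardiac HSA and 6 cardiac control libraries. Per the labels and the study's methods, the authors trimmed adapters with Cutadapt, aligned with Bowtie to CanFam3.1, annotated with miRBase and counted with HTSeq. The labels and the methods name different library kits. The deposited table holds raw counts for 517 rows of mature miRNA and precursor, and a second deposited table holds the same counts as CPM, which recomputation matched within 0.00499. For the 48 mature miRNAs with several rows, the row with the highest total was used, leaving 453. No column was left out.

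Counts were scaled by TMM factors over the 12 cardiac libraries and log2 levels used a prior count of 2 (edgeR 4.0.16, R 4.3.3). Fold ranges used a floor of 3 counts per library. Pairs were tested by the exact permutation of 720 orders (two-sided) of Spearman's rho and Pearson's r (Python 3.11.15, scipy 1.17.1), and r was repeated without the 2 libraries farthest from the median of the first miRNA. Slopes were fitted with edgeR's quasi-likelihood test and Benjamini-Hochberg adjustment over all miRNAs tested, with DESeq2 1.42.0 as an alternative. On simulated data for the 6 tumors and 213 miRNAs, 90.2% of 1770 pairs that shared a factor and 3.35% of unrelated pairs were called. For slopes of 1 on miR-1, 60 of 60 were recovered with 3 false calls. The shared factor was the measured miR-1 level. The simulated biological coefficient of variation was 0.4, below the common value of 0.957 in the tumors. These rates therefore hold for an easier setting than that of the tumors. The members, lists and pairs were chosen with earlier results of these data known.

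Named miRNAs are the 10 highest by mean share, the 10 highest and 5 lowest SDs, the 5 highest and lowest loadings on both components, the 3 highest and lowest partners of miR-21, miR-1, miR-126 and miR-142, called slopes, and list and pair members. Others were named after their values were seen. Neighbouring genes were read from RefSeq annotation of the assembly UU_Cfam_GSD_1.0, matched by name for 445 of 453. That assembly differs from CanFam3.1, so no coordinates are given, and no mature sequences were at hand. Each dog gave 1 library. Alternatives were scaling by library size, median-of-ratios factors, TMM over the 6 tumors, no filter, a mean of at least 100 CPM, each tumor left out, counts thinned to 1656084, near-identical pairs left out, DESeq2, and totals over all deposited rows. Leaving out miR-133c and miR-107 was chosen after seeing the data.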

Additional observations from a re-analysis of the deposited data

Results flagged for a closer look

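Among 45 miRNAs of the tumors that were examined for a library standing apart from the other 5 on the log2 scale, 4 had a gap larger than Dixon's 95% critical value for 6 samples. Chance gives about 1 in 20 for a miRNA that was not chosen by its values. The 4 include miRNAs named for their share, SD or loadings in these tumors, so that rate does not apply and the count is a description. Let-7a was high in tumor 4, at 107626 CPM, with 48360 to 64987 CPM in the others. MiR-122 was high in tumor 3, at 226586 CPM. MiR-20b was low in tumor 5, at 1.58 CPM, with 10.8 to 22.4 CPM in the others. MiR-144 was low in tumor 5 as well, at 29.2 CPM, with 101 to 189 CPM in the others. Tumor 5 had the lowest miR-451 too, 2570 CPM, which did not pass the critical value.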

How the results depend on the processing

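No paired analysis was possible because no groups were compared and replicate numbers in the titles only name dogs. Of 147 rho values recomputed under other scalings, 137 kept their side of the threshold, 5 lost it and 5 gained it. With library size alone 5.31% of pairs rose together and 0.912% moved oppositely, in place of 3.44% and 1.97%, and without a filter 1.36% moved oppositely. At a mean of at least 100 CPM these were 3.96% and 2.06%, and 28 miRNAs, in place of 69, ranged over at least 10-fold, where fewer miRNAs are tested. With 1 tumor left out, 1.34% to 1.67% of pairs rose together and 0.731% to 1.11% moved oppositely, and 7 to 10 of the named pairs were called in place of 15. With 5 libraries and no ties only a rho of 1 or -1 can pass, at an exact permutation p of 0.0167. The first component took 38.3% to 47.4% with 1 tumor left out. The number of miRNAs that changed with miR-1 (7) was 4 with library size alone, 4 with TMM factors over the tumors, 4 without a filter, 19 with DESeq2 and 2 to 9 with 1 tumor left out; DESeq2 called 9 with miR-21, 28 with miR-126 and 3 with miR-142, where edgeR called 0. The cause was not tested. The 10 leading miRNAs together took 57.4% of the reads, 43.0% when all deposited rows entered the total and 55.1% to 58.5% with 1 tumor left out. Near-identical pairs were taken by shared number and nearly identical counts. Depth limits the miRNAs near the floor of 3 counts, 0.414 to 1.81 CPM by tumor.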

Other observations

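A group on the X chromosome was chosen after its values were seen. MiR-424, miR-450a, miR-450b, miR-503 and miR-542 lie next to each other, and their 10 neighbouring pairs had a rho of 0.943 to 1. MiR-450b, the most abundant, had 105 CPM in tumor 1, 244 in tumor 2, 300.5 in tumor 3, 469 in tumor 4, 784 in tumor 5 and 133.6 in tumor 6, and miR-503 had 9.73, 35.5, 27.3, 42.4, 76.9 and 25.5 CPM. All 5 were lowest in tumor 1 and highest in tumor 5. In contrast, miR-191 and miR-425, which also neighbour each other, had a rho of -0.26 (exact permutation p = 0.658, adjusted p = 0.961). MiR-191 had 3022, 4357, 6215, 3281, 4721 and 4740 CPM in tumors 1 to 6, highest in tumor 3, and miR-425 had 124.9, 267, 26.2, 457, 204.6 and 280.1 CPM, lowest in tumor 3. MiR-184 had 739 CPM in tumor 1, 102 in tumor 2, 2.76 in tumor 3, 4.77 in tumor 4, 4.97 in tumor 5 and 63.4 in tumor 6, so that tumors 3, 4 and 5 were lowest.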
